A study of Mus musculus with 6 samples.

Results

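The genes described here build or carry the T-cell receptor: the receptor gene segments Trbv1 and Trgv4, the CD3 chains Cd3d, Cd3e, Cd3g and Cd247, the pre-receptor chain Ptcra, the recombinase genes Rag1 and Rag2, and Dntt. They are 10 of the 18193 genes that the platform annotation names on a probe set of their own, and 18 probe sets carry 1 of their symbols alone. They were chosen by their measured levels on these arrays, as a contrast between expressed receptor segments and silent receptor machinery. Those levels, and their differences between the genotypes, are therefore given as a description with no test. Expression was measured on 6 Affymetrix arrays. The cells were grown from mouse embryonic stem cells that were Gata3+/- (3 arrays) or Gata3-/- (3 arrays). The stem cells were grown on OP9/OP9-DL1, stromal lines from bone marrow of which the latter displays a Notch ligand, with IL-7 and Flt3L added. The cells labelled T-cell progenitors were then sorted by flow cytometry. The age of the cultures, the sort markers, the number of stem cell clones behind each genotype and the disrupted part of Gata3 are not stated in the labels. Each array is called by its genotype and its biological replicate number. The labels call the replicates biological but do not say that they came from separate cultures. The p-values therefore cover only the spread seen among these arrays, and the source of that spread is not stated.

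As background, a T-cell receptor is a pair of variable chains, alpha with beta or gamma with delta, that reaches the cell surface only together with the CD3 chains and the CD247 (zeta) homodimer. The CD3 and zeta tails carry ITAMs, the tyrosine motifs through which the receptor signals. The receptor genes are assembled in the thymus from separate V, D and J segments by the recombinase of RAG1 and RAG2, while terminal transferase, encoded by Dntt, adds bases at the joins. In early thymocytes a finished beta chain pairs with the pre-T alpha chain from Ptcra and signals through CD3. V segments can be transcribed before they are rearranged, and an array signal does not tell such germline transcripts from rearranged ones.

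The labelled cell type was poorly matched by its markers. Of 10 T-lineage markers on the array outside the members, 8 stayed under a minimum level of 4 on every array (Cd2, Cd4, Cd8a, Cd8b1, Thy1, Il2ra, Bcl11b and Zap70), and only Cd5 and Lat were measured. Levels are log2 GC-RMA intensities and the minimum of 4 stands for an intensity of 16. All 11 macrophage and monocyte markers on the array were measured, with a summed intensity of 129854 to 149221 on Gata3+/- arrays and 101289 to 118061 on Gata3-/- arrays. The summed intensity of the T-lineage markers was 480 to 590 and 267 to 476. These sums mostly follow Lat, with mean levels of 8.86 on Gata3+/- arrays and 8.01 on Gata3-/- arrays. Cd5 went the other way, with means of 4.75 and 6.19. The arrays measured whole sorted populations, so fewer cells of a type and less RNA per cell cannot be told apart. The probe set of the targeted gene, Gata3, stood at 5.39, 6.40 and 5.86 on Gata3+/- arrays and 5.87, 6.44 and 5.48 on Gata3-/- arrays. Where its probes lie relative to the disruption is not given, so the genotypes are used as labelled.

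Receptor segments, as the annotation names them, were the members with signal. Trbv1, a variable segment of the beta chain on chromosome 6, stood at 9.10, 11.01 and 9.03 on Gata3+/- arrays 1 to 3 and at 8.99, 11.78 and 9.78 on Gata3-/- arrays 1 to 3 (probe set 1452205_x_at). The genotypes overlapped, with means of 9.71 ± 1.12 and 10.18 ± 1.44 (SD, n = 3 each), and array 2 was the highest in both. The difference, Gata3-/- minus Gata3+/-, was 0.47, less than the spread between replicates. Its other probe set, 1433108_at, lay between 2.17 and 2.35 on all 6 arrays and gave no signal above the minimum. The signal named Trbv1 thus rests on 1 of 2 probe sets, and by Affymetrix naming the suffix _x marks probes that can also match other transcripts. Whether the probes read for Trbv1 and Trgv4 lie in variable or constant regions is not given. Their signal therefore cannot be placed in the named segments.

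Trgv4, a variable segment of the gamma chain on chromosome 13, was measured by 2 of its 3 probe sets. With 1450521_a_at it stood at 7.89, 9.62 and 8.44 on Gata3+/- arrays and 7.38, 9.43 and 7.68 on Gata3-/- arrays. Probe set 1422189_x_at read 7.61, 9.42 and 8.07 against 7.10, 9.24 and 7.45. On both, array 2 was again the highest of each genotype and the genotypes overlapped. Their differences were -0.49 and -0.43, with SDs of 0.88 to 1.15 within a genotype. The probe set 1427802_a_at stayed between 2.92 and 3.00. A further probe set, 1422188_s_at, is annotated to Trgv4 and Trgv2 together and so is no member by the rule. It stood at 9.58, 10.97 and 9.81 against 8.88, 10.77 and 9.14, with the same arrays highest. The probe sets of Trgv4 are annotated to the same gene. Whether their probes share a target sequence is not given, so they are not counted as independent measurements.

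**Figure D1:**
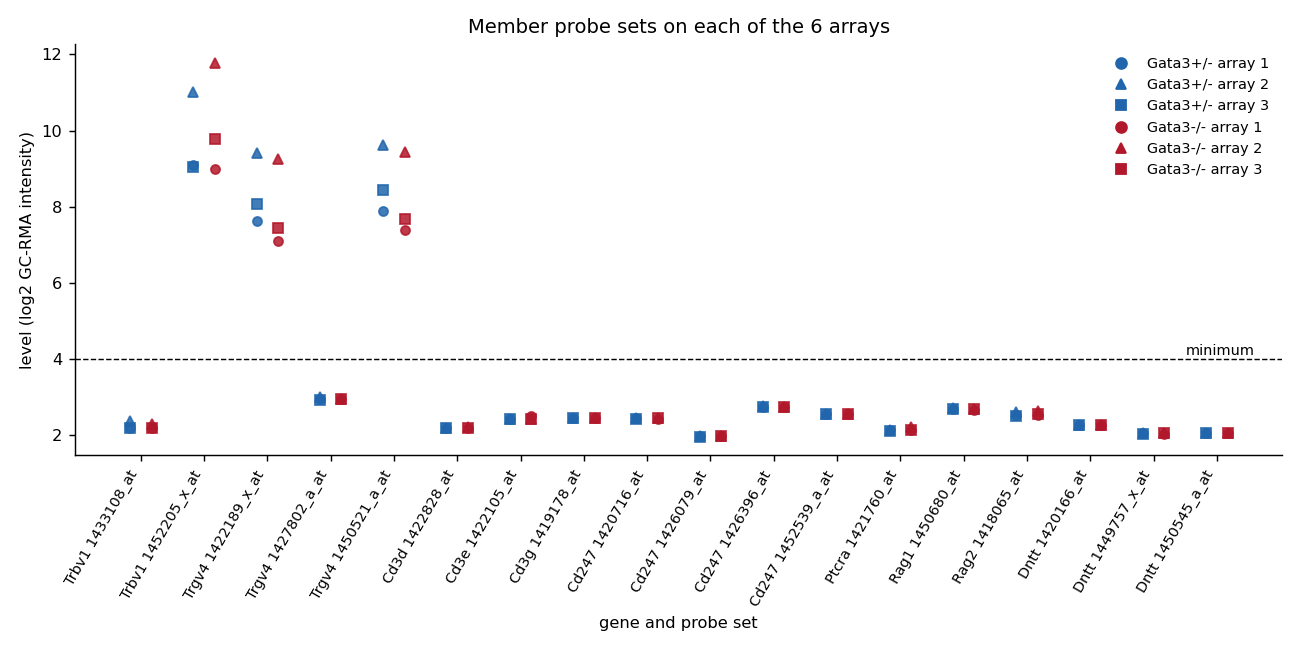
Log2 GC-RMA intensity (y axis) of all 18 member probe sets (x axis) on each array, with circles, triangles and squares for arrays 1, 2 and 3, blue for Gata3+/- and red for Gata3-/-, and a dashed line at the minimum of 4. The probe sets 1452205_x_at of Trbv1 and 1422189_x_at and 1450521_a_at of Trgv4 lie above the line with the triangles on top, and the other 15 lie below it.

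In all, 3 of 18 member probe sets (16.7%) reached the minimum on at least 3 arrays, against 44.6% of all probe sets and 52.2% of those with 1 gene symbol. The remaining 15 never reached it on any array, as did 53.5% of all probe sets. The lowest value of a measured member was 7.10 (Trgv4, 1422189_x_at) and the highest value of an unmeasured one was 3.00 (Trgv4, 1427802_a_at). No member lay near the minimum. Genotypes overlapped for all 18, while 30.6% of all tested probe sets did not overlap. Since levels and genotype differences entered the choice of members, nothing is read from these counts.

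The other receptor segments named on the array were mostly at the floor. Besides the members, 12 probe sets carried the symbols of 8 other segments or receptor loci. The 10 probe sets of the alpha chain locus, for 6 symbols among them Tcra, Trav6-3 and Trav9d-3, lay between 1.91 and 3.48 throughout. Trgv1, a second gamma segment, reached the minimum on the arrays numbered 2 alone: it stood at 2.40, 4.60 and 2.43 on Gata3+/- arrays and 2.49, 5.35 and 2.14 on Gata3-/- arrays. The beta segment Trbv13-2 stood at 2.95, 3.04 and 3.10 on Gata3+/- arrays and 2.97, 5.35 and 3.19 on Gata3-/- arrays. It passed the minimum on Gata3-/- array 2 alone. Neither was tested, because both were under the minimum on more than 3 arrays.

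The receptor segments differed more between arrays of 1 genotype than between genotypes. This contrast was set up after the values were seen and carries no test. Trbv1 was 1.94 higher on Gata3+/- array 2 than the mean of arrays 1 and 3, and 2.40 higher on Gata3-/- array 2. Trgv4 (1450521_a_at) was 1.45 and 1.90 higher, and its second measured probe set 1.58 and 1.97 higher. All 3 measured member probe sets were thus at least 1 higher on array 2 in both genotypes, as were 0.363% of the 20102 probe sets tested. With each gene represented by its brightest tested probe set, 24 of 10302 genes (0.233%) met this. Ordered by the smaller of both shifts, Trbv1 ranked 1 and Trgv4 ranked 5 among the 24. The median shift over all tested probe sets was 0.01 in Gata3+/- and 0.02 in Gata3-/-. Without both arrays numbered 2, the genotype differences were 0.32 for Trbv1 and -0.64 and -0.56 for the probe sets of Trgv4.

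Several blood cell genes shared the shift, and are named after their values were seen. Tox, which encodes a DNA-binding protein needed for CD4 T cells, read 7.19, 8.59 and 6.52 on Gata3+/- arrays and 5.33, 7.40 and 4.78 on Gata3-/- arrays. Gzma, a granzyme of cytotoxic lymphocytes, read 9.97, 11.48 and 10.72 against 8.86, 11.72 and 9.63. Cd160, a receptor of natural killer and T cells, read 5.23, 6.44 and 5.22 against 5.31, 6.76 and 5.29. Genes of other blood lineages had it too: Cpa3, the mast cell carboxypeptidase, Prtn3, a granule protease of myeloid progenitors, and Myb, a factor of haematopoietic progenitors. All told, 22 genes outside the members had the shift. They include Homer2, Rhox5, Bdh1, Apcdd1 and Spon1, which were not picked here as blood cell genes.

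Several stromal markers ran the other way. Of the 10 stromal markers measured, 5 were at least 1 lower on array 2 in both genotypes (Col1a1, Col1a2, Col3a1, Col5a2 and Fn1, all of the extracellular matrix), as were 2.49% of all genes. Cxcl12, a chemokine of marrow stroma, was instead higher on array 2, by 0.84 in Gata3+/- and 0.92 in Gata3-/-, and Postn was 0.31 above the other arrays in Gata3+/- and -0.41 from them in Gata3-/-. The summed intensity of all 12 stromal markers on the array was 11149, 4124 and 12350 on Gata3+/- arrays and 6616, 3527 and 11726 on Gata3-/- arrays, and Thy1 and Lum were under the minimum throughout. For 11 natural killer and innate lymphoid markers it was 3054, 6429 and 4236 against 5429, 24379 and 9818, again highest on array 2. The brightest of them on Gata3-/- arrays was Gzmb, a second granzyme, at log2 levels of 12.11, 14.30 and 13.05, against 10.35, 11.38 and 10.80 on Gata3+/- arrays, so the sums mostly follow that gene there. Il18rap, a receptor chain for IL-18, was not higher on array 2, at 0.01 from the other arrays in Gata3+/- and -0.53 in Gata3-/-. Of the list 5 were measured, 1 of them (Gzma) with the shift of at least 1 in both genotypes, and Ncr1, Prf1, Eomes and Tbx21, defining genes of that lineage, stayed under the minimum. The part of stromal or innate lymphoid cells in the levels of Trbv1 and Trgv4 was not tested.

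**Figure D2:**
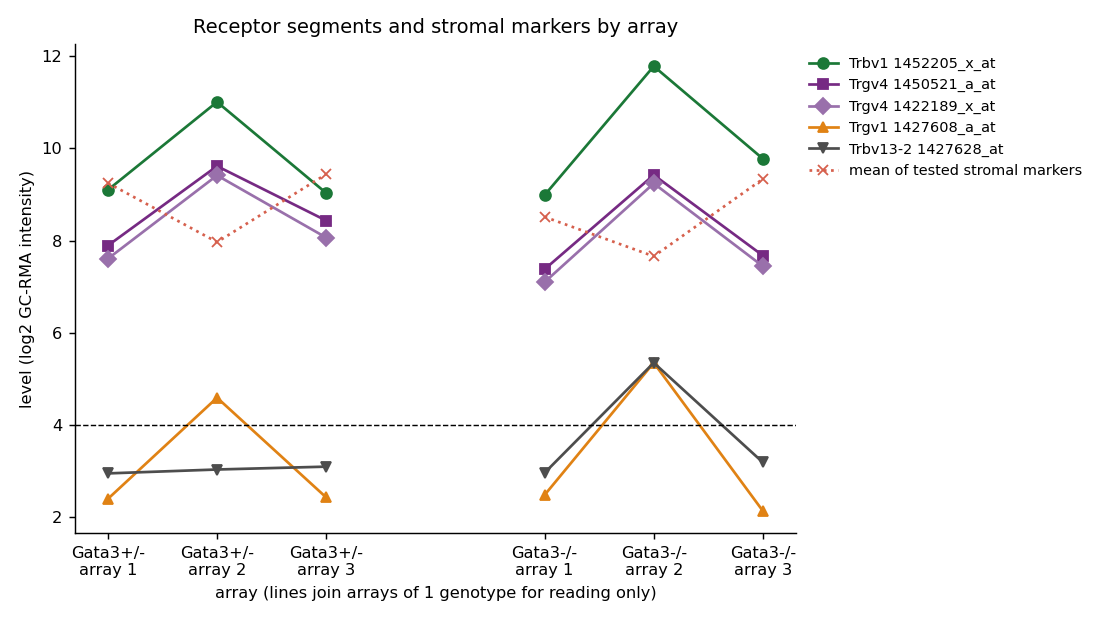
Log2 GC-RMA intensity (y axis) of 5 receptor segment probe sets and the mean of the 10 measured stromal markers on each of the 6 arrays (x axis), with a dashed line at the minimum of 4. Trbv1 and Trgv4 peak on array 2 of both genotypes, at 11.01 and 11.78 for Trbv1, where the stromal mean is lowest, at 7.97 and 7.66.

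**Figure D3:**
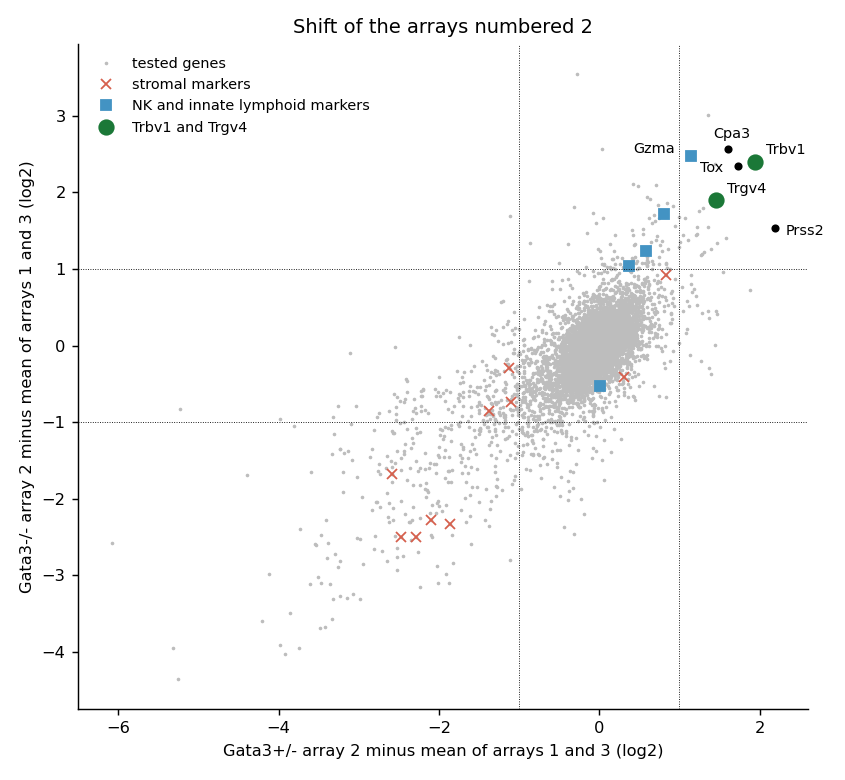
Each grey point is 1 of 10302 genes, placed by its log2 level on array 2 minus the mean of arrays 1 and 3, in Gata3+/- (x axis) and Gata3-/- (y axis); crosses are stromal markers, squares natural killer and innate lymphoid markers, and dotted lines mark shifts of 1 and -1. Trbv1 (1.94 and 2.40) and Trgv4 (1.45 and 1.90) lie in the sparse upper right corner with Tox, Cpa3, Prss2 and Gzma, and the collagens among the stromal markers lie at the lower left.

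The genes with patterns most like the segments were sought over the 6 arrays, by the root mean square distance between log2 profiles centred on their means. For Trbv1, whose own spread by this measure was 1.08, the nearest of 10301 genes were Cpa3 (distance 0.35), Myb (0.40) and Angpt1, a ligand of the Tie2 receptor (0.41). For Trgv4 the nearest was Gzma with both probe sets (0.28 and 0.29, own spread 0.85 and 0.88), then Calhm6 (0.32 and 0.36). The third was Mpo, the myeloperoxidase of granules, with 1450521_a_at (0.35) and Aqp9, a water channel, with 1422189_x_at (0.36). With 6 arrays and this many genes, small distances are easily found, and they are given as a description.

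Genes beside the segments on the chromosome mostly lacked the shift. In the order of the gene table, the 3 nearest measured genes on each side of Trgv4 were Vps41, Yae1d1, Rala, Stard3nl, Epdr1 and Elmo1, of which 0 were at least 1 higher on array 2 in both genotypes. Around Trbv1 they were Clec5a, Ssbp1, Dennd11, Prss2, Kel and Gstk1. Of these 6 only Prss2, a trypsinogen gene, had the shift. It read 7.96, 9.92 and 7.50 on Gata3+/- arrays and 7.30, 8.57 and 6.76 on Gata3-/- arrays, and 50 annotated genes lie between it and Trbv1. Trypsinogen genes lie inside the beta chain locus. The genotype differences of these 12 neighbours ran from -0.92 (Prss2) to 1.54 (Kel), with adjusted p-values from 0.0540 (Gstk1) upward in limma.

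The CD3 chains, which carry the receptor to the surface, were at the floor on all arrays. Cd3d stood at 2.19, 2.19 and 2.18 on Gata3+/- arrays and 2.18, 2.19 and 2.19 on Gata3-/- arrays. Cd3g stood at 2.45, 2.45 and 2.43 against 2.43, 2.45 and 2.44. For Cd3e the values were 2.42, 2.42 and 2.41 against 2.50, 2.42 and 2.42. The zeta chain gene Cd247 has 4 probe sets, which lay between 1.95 and 2.74 over all arrays, and each varied by 0.012 to 0.024. Both genotypes overlapped for each chain.

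Ptcra, the partner of the beta chain before an alpha chain exists, stood at 2.12, 2.13 and 2.11 on Gata3+/- arrays and 2.12, 2.21 and 2.12 on Gata3-/- arrays. The recombinase genes were equally low. Rag1, which encodes the catalytic subunit, stood at 2.67, 2.70 and 2.67 against 2.66, 2.68 and 2.68. Its partner Rag2 stood at 2.51, 2.59 and 2.50 against 2.52, 2.64 and 2.54. The 3 probe sets of Dntt lay between 2.03 and 2.27. Over the 15 probe sets under the minimum, including those of Trbv1 and Trgv4, genotype means differed by at most 0.03, and 13 varied by under 0.1 over the 6 arrays. The exceptions were 1433108_at of Trbv1, with a range of 0.19, and Rag2 with a range of 0.14. Array 2 was the highest of each genotype for both, as for other probe sets at the floor, among them Tcra and Trav6-3 outside the members. The share over all probe sets was not counted, so nothing is read from this order. At this level GC-RMA values carry little information, so low expression and none cannot be told apart.

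The 300 bases around the starts of these genes (250 before and 50 after) were searched for motifs of factors known to act in T-cell development. They are shown so that the motifs can be seen in the silent members. RefSeq promoter windows of build GRCm38.p6 were held for 8 of 10 members, all except Trbv1 and Trgv4. Both strands were searched. The motif bound by GATA factors was written as AGATAA. Its variants AGATAG with G at the end, TGATAA with T at the start, and TGATAG with both were counted with it. Forms of the E box were CAGGTG, to which E proteins bind, together with the palindrome CAGCTG, and the core bound by RUNX factors was TGTGGT. No matches of different motifs overlapped. The windows of Cd3d and Cd3g, neighbours that are read away from each other, of Ptcra and of Rag1 follow, 5′ to 3′ along the gene, with matches in capitals.
Cd3d, chr9:44981536-44981835, plus strand: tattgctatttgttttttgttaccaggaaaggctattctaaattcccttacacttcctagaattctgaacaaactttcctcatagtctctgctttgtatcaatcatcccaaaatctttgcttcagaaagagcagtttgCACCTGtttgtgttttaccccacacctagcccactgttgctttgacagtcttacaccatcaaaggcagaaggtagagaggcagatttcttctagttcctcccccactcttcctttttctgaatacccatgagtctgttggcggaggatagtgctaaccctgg
Cd3g, chr9:44980382-44980681, minus strand: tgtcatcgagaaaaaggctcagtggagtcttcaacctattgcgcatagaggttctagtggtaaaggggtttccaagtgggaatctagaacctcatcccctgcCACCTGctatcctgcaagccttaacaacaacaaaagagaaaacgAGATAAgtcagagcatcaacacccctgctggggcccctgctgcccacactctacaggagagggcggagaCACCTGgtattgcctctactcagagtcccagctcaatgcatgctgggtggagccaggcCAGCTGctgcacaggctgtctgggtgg
Ptcra, chr17:46763663-46763962, minus strand: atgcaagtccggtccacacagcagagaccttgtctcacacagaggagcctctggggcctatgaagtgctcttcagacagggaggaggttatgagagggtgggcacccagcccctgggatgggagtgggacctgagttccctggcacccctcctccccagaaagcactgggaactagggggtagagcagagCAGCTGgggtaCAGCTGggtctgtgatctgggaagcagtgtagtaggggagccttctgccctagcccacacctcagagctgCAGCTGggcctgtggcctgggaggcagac
Rag1, chr2:101649483-101649782, minus strand: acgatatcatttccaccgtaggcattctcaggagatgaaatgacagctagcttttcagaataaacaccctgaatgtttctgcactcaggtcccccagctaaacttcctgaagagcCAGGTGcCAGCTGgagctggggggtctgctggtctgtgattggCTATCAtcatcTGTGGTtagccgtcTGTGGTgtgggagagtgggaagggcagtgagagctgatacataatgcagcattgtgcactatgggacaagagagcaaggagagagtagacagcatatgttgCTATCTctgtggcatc

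E box forms were found in 6 of 8 member windows (75.0%), against 32.9% of 32851 promoter windows of the same length. Ptcra held 3 copies of CAGCTG, Cd3g held 3 E boxes, and Cd3d held 1. GATA matches were found in 3 of 8 (37.5%, against 29.8% of all windows): 1 in Cd3g, 1 in Dntt and 2 in Rag1. The RUNX core was found in Rag1 alone of the 8 (2 matches, at -81 and -67 bases from the start), against 16.8% of all windows. Rag2 held no match to any of the 3 motifs. A match of letters is neither a bound site nor a cause.

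**Figure D4:**
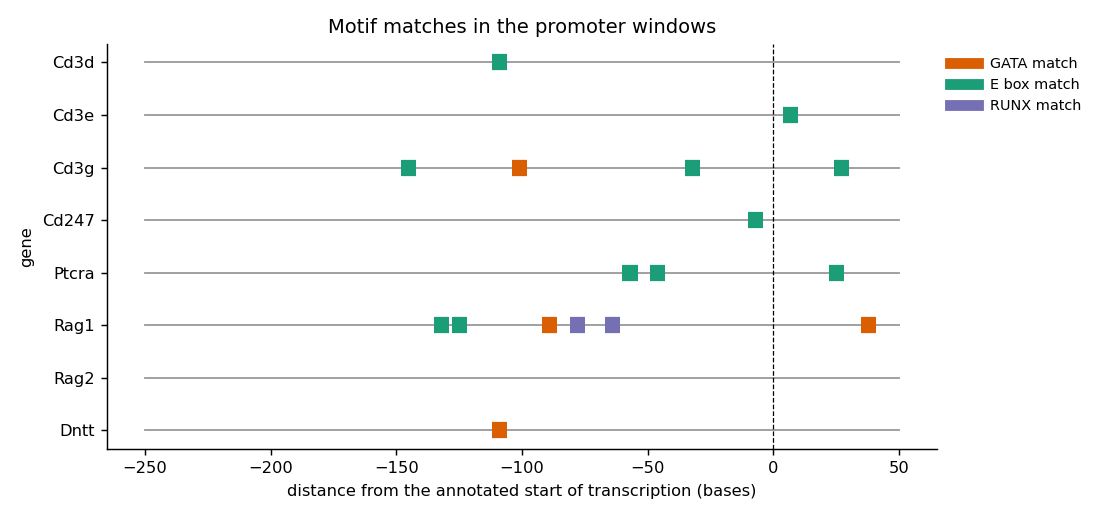
Matches to the GATA, E box and RUNX motifs (coloured blocks) in the promoter windows of 8 members (rows), by distance in bases from the annotated start of transcription (x axis, dashed line at 0). Rag1 holds matches to all 3 motifs, and Rag2 holds none.

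Factors that act on these genes in thymocytes were mostly present, and few passed as differing between the genotypes. Of 31 regulators listed, 30 were on the array and 26 were measured. In limma with Benjamini-Hochberg adjustment over all probe sets, 2 rose in Gata3-/- arrays, 0 fell and 24 did not pass, against 2.86% of all genes that rose and 2.41% that fell. The median difference of the list was 0.04, and over all genes it was -0.02. The 2 that rose encode parts of IL-7 signalling, each with a second probe set also called: Il7r, the receptor chain, by 1.20 (SE 0.19, adjusted p = 0.0371), and Stat5a, which transmits its signal, by 1.04 (SE 0.14, adjusted p = 0.0334). The E protein genes, whose products bind E boxes, were measured on all arrays. Tcf3 stood at 9.05 ± 0.06 and 9.03 ± 0.17, and Tcf12 at 10.96 ± 0.18 and 10.99 ± 0.16. Tcf4 stood at 10.32 ± 0.05 and 10.16 ± 0.08, without overlap (as for 30.6% of all tested probe sets), and did not pass. Foxo1, known to drive Rag transcription, stood at 7.18 ± 0.19 and 7.28 ± 0.09. At an unadjusted p under 0.05 in limma, 5 of the list were higher and 1 was lower. Besides the 2 that passed, these were Runx3, Ets2 and Stat5b (higher) and Satb1 (lower). Of all 20102 tested probe sets, 4722 were under that level, in either direction. Under the minimum throughout were Bcl11b, Ikzf3 and Gfi1.

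The enzymes that repair the breaks made by the recombinase are found in most cells, and 15 of 16 on the array were measured. H2ax, a histone variant marked at DNA breaks, fell by 0.92 (SE 0.13, adjusted p = 0.0349 in limma), from 12.11 ± 0.17 to 11.19 ± 0.18, and 14 did not pass. The joining ligase gene Lig4 stood at 6.39 ± 0.50 and 6.61 ± 0.12, and Prkdc, the DNA-dependent kinase, at 7.70 ± 0.20 and 8.08 ± 0.32. The list's median difference was 0.17.

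The relay below the receptor was measured in part. Of 16 signalling genes on the array 5 were measured, and in limma 0 passed in either direction (at an unadjusted p under 0.05, 1 higher and 1 lower; median 0.11). Lcp2, an adaptor shared with myeloid cells, stood at 12.05 ± 0.05 and 12.16 ± 0.13, and the kinase gene Syk at 10.92 ± 0.40 and 11.12 ± 0.33. Cd5, an inhibitory coreceptor, read 4.50, 4.50 and 5.24 on Gata3+/- arrays and 6.26, 6.71 and 5.59 on Gata3-/- arrays. Its genotypes did not overlap, as for 30.6% of all tested probe sets, with a difference of 1.44 (SE 0.35, adjusted p = 0.0764 in limma). Lat, the membrane adaptor phosphorylated by ZAP70, had a difference of -0.85 (SE 0.29, adjusted p = 0.157 in limma), also without overlap.

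Other receptors' ITAM adaptors, in contrast with CD3 and zeta, were measured on all arrays for 4 of 5 genes. Fcer1g, the Fc receptor gamma chain, stood at 13.81 ± 0.05 and 13.69 ± 0.002, Tyrobp (DAP12) at 14.74 ± 0.03 and 14.66 ± 0.08, and Cd79b, of the B-cell receptor, at 9.66 ± 0.17 and 9.31 ± 0.28. Its partner Cd79a was under the minimum throughout. In limma 0 of the 4 passed (0 higher and 1 lower at an unadjusted p under 0.05; median -0.23). Of 7 pre-B receptor genes on the array 2 were measured and 0 passed in limma (0 higher and 1 lower at an unadjusted p under 0.05). Ighm, the heavy chain constant region, stood at 12.23 ± 0.31 and 10.91 ± 0.40 (difference -1.32, SE 0.25, adjusted p = 0.0505, with another of its probe sets called), Ebf1 at 5.17 ± 0.46 and 4.84 ± 0.15, and Igll1 and Vpreb1, the surrogate light chain, were at the floor.

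**Figure D5:**
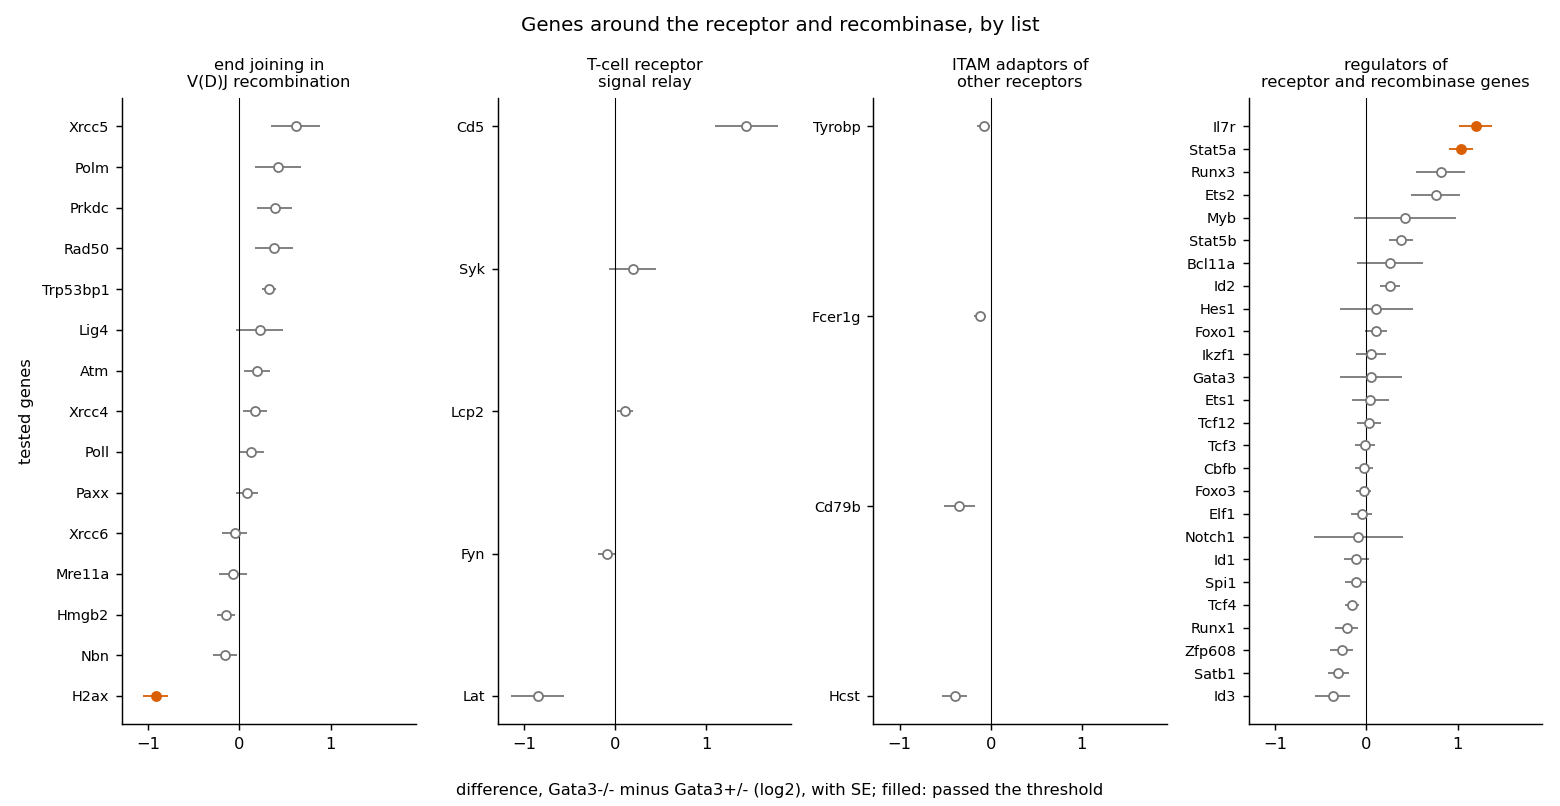
Difference between genotypes (Gata3-/- minus Gata3+/-, log2, x axis) with its standard error for each measured gene (rows) of 4 lists, filled where the adjusted p was under 0.05. Of all genes shown, only H2ax (-0.92), Il7r (1.20) and Stat5a (1.04) are filled.

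Marker lists of other cell types that a sort could hold gave few calls. In limma, Il18rap fell by 0.98 (adjusted p = 0.0436) among 5 measured natural killer and innate lymphoid markers, and Fcgr1 fell by 0.70 (adjusted p = 0.0431) among 11 of macrophages and monocytes. Of 7 measured markers of plasmacytoid dendritic cells, Siglech fell by 4.50 (adjusted p = 0.0281) and the regulator gene Irf8 by 0.67 (adjusted p = 0.0383). No marker in these lists passed as higher. At an unadjusted p under 0.05, 1 was higher in each of these 3 lists, and 1, 7 and 2 were lower. Of all 20102 tested probe sets, 4722 were under that level in limma, in either direction. Spib, a factor of plasmacytoid and B cells, differed by 2.74 (SE 0.60, adjusted p = 0.0652) and Gzmb by 2.32 (SE 0.59, adjusted p = 0.0856) in limma. The genotypes of neither overlapped, as for 30.6% of all tested probe sets. Among 4 B-lineage markers, 6 erythroid and 10 stromal ones 0 passed, with 0, 1 and 0 higher and 2, 0 and 1 lower at an unadjusted p under 0.05. The brightest of these were the embryonic globin genes Hbb-bh1 (14.21 ± 0.38 and 13.34 ± 0.90) and Hbb-y (13.71 ± 0.65 and 13.43 ± 1.02), and, of the stroma, Col1a2 (11.13 ± 1.22 and 10.45 ± 1.47) and Sparc (10.76 ± 0.64 and 10.36 ± 0.43). The 7 list genes called above lost the call whenever any 1 array was left out, and 0 to 9 of 878 called probe sets (4.37% of those tested) then remained called.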

How the data were processed

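Levels are GC-RMA intensities on a linear scale, as deposited by the authors for 45101 probe sets on 6 arrays. GC-RMA is named in the labels, and corrects background by probe sequence and normalizes between arrays. The submitters' processing notes name GCOS, Affymetrix's scanner software, with no version. GC-RMA pulls dim probe sets to a common floor, so small differences there carry little information, and the number of arrays limits the precision.

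The log2 was taken, 64 control probe sets were left out, and 20102 probe sets that reached log2 4 on at least 3 arrays were tested with limma 3.58.1 in R 4.3.3 (lmFit, eBayes, two-sided, Benjamini-Hochberg over all, threshold 0.05). The procedure was tested on simulated data. The simulated noise was drawn independently for each probe set and array, so deviations shared across probe sets were not covered. Gene names came from the platform annotation: 34945 probe sets had 1 symbol, 932 several and 9160 none. Of the first, 34741 matched RefSeq (GRCm38.p6) by gene identifier. A gene outside the members was represented by its brightest tested probe set. Neighbours and promoters are RefSeq's; probe sets are given without coordinates, since their build is not stated.

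Members and lists were chosen with earlier results of these data known. Named genes were all members, up to 4 called genes per list (or the 2 with the highest mean level where 0 passed), the 3 nearest profiles and the 3 measured genes on each side. Any other gene was picked with its values in view.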

Additional observations from a re-analysis of the deposited data

How the results depend on the processing

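The count of 3 member probe sets at the minimum held with a minimum of log2 3 or 5, with 1 or all 6 arrays required, and with quantile normalization. The genotype differences of all 18 member probe sets moved by less than the replicate SD under each alternative run. Leaving out 1 array in turn gave -0.33 to 1.12 for Trbv1 (1452205_x_at), -1.12 to -0.004 for Trgv4 (1450521_a_at) and -1.09 to 0.09 for 1422189_x_at, so their directions are not settled. Of all probe sets, 878 were called. Without a filter there were 166, with a variance trend and robust eBayes 1349, with array weights 2075, without both arrays numbered 2 (chosen after seeing the data) 4, and on leaving out 1 array 0 to 9, with 3578 to 4622 at an unadjusted p under 0.05. These last fits hold fewer arrays. The stricter filter, quantile normalization and median centring stayed within 1.5 times. Deviations between same-numbered arrays correlated across tested probe sets by 0.005 (number 1), 0.695 (2) and 0.429 (3), and Gata3+/- array 1 correlated best with Gata3-/- array 3 (0.424). The labels do not say what a number marks, and not every same-numbered pair deviated together, so no pairing was assumed. Whether some pairs share a culture or day was not tested. With the replicate block 498 were called, 295 of them among the 878. Of the 7 list genes called, 5 were called with the block (not Il18rap, adjusted p = 0.0575, or Irf8, adjusted p = 0.0669), 0 without a filter or without both arrays numbered 2, and 7 under the other alternatives that kept all arrays.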

Other observations

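Some lymphoid genes reached the minimum on an array numbered 2 and were under it on most others. They were picked after their values were seen, were not tested, and are given as values. The share of all probe sets with this pattern was not counted. Other genes of the same lists lacked it: Cd2, Zap70, Themis and Thy1 varied by only 0.014 (Themis) to 0.035 (Zap70) over the 6 arrays. Txk, a kinase of T and natural killer cells, read 2.61, 4.27 and 2.85 on Gata3+/- arrays and 2.62, 5.84 and 3.41 on Gata3-/- arrays. Lef1, a factor of early T and B cells, read 3.67, 4.26 and 3.66 against 3.67, 6.10 and 3.66. Nkg7, a granule protein of cytotoxic lymphocytes, read 2.58, 3.87 and 2.96 against 3.36, 5.96 and 3.54. Trat1, an adaptor that associates with the T-cell receptor, stayed under the minimum and was highest on Gata3-/- array 2 (3.71). Notch1, measured on all arrays, read 7.62, 8.25 and 7.57 against 7.24, 8.79 and 7.13. Its target Hes1 was 0.74 above the mean of the other arrays on Gata3+/- array 2 and 1.16 above on Gata3-/- array 2, so both were highest on array 2 of each genotype.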
